A study of Mus musculus with 64 samples.

Results

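Nodal, Lefty1, Lefty2, Tdgf1 and Foxh1 encode core components of the Nodal signalling pathway. These 5 genes were chosen by name, out of 21938 protein-coding genes, and each was examined in a window that runs from 20000 bp before its gene body to 20000 bp after it. A peak was assigned to a gene when its summit, the base of highest read pile-up, lay in that window. Across 60 chromatin immunoprecipitation (ChIP–seq) peak lists, 1961 of 12175735 peaks met this rule. Of the 1094874 peaks that were among the 20000 strongest of their own list, 440 did.

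Nodal is a secreted ligand of the TGFβ family that acts through activin receptors, the co-receptor encoded by Tdgf1 (also called Cripto) and the transducers SMAD2 and SMAD3. In the nucleus these SMADs bind DNA together with partners such as FOXH1, and the pathway switches on Nodal itself as well as Lefty1 and Lefty2, which encode secreted antagonists of the ligand. In the early mouse embryo the pathway maintains the epiblast, acts with WNT signalling in formation of the primitive streak, and patterns the left–right axis. β-catenin is the nuclear effector of WNT signalling and is brought to DNA by the TCF/LEF factors TCF7L1, TCF7L2 and LEF1, whereas SOX2 is a DNA-binding factor known for its part in pluripotency and in neural progenitors.

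Occupancy of SOX2, β-catenin, LEF1, TCF7L1 (TCF3 in the sample labels) and TCF7L2 (TCF4 in the labels) was assayed in 4 conditions with 3 biological replicates each, all of them in mouse embryonic stem cell lines of HM1 (129) origin. Naive ESCs were wild-type cells of the parental HM1 TetON line held in 2i medium, which inhibits MEK and GSK3. CEpiLCs were the same wild-type cells differentiated for 72 h to caudal epiblast-like cells, in FGF and LGK974, a blocker of WNT secretion, with the GSK3 inhibitor CHIR99021 added for the last day. SOX2-TetON cells lack functional endogenous Sox2 (labelled Sox2-/-) and carry a doxycycline-inducible Sox2 transgene in the HPRT locus, driven through a reverse transactivator expressed from Rosa26. They went through the same differentiation for 72 h either with doxycycline (1 µg/ml) kept in the medium (SOX2-ON) or with doxycycline withdrawn (SOX2-OFF). Naive ESC and SOX2-ON are the high-SOX2 conditions, and CEpiLC and SOX2-OFF the low-SOX2 conditions. Peak lists hold neither expression nor SOX2 protein levels, so neither the cell types nor the SOX2 level could be checked here. SOX2 peaks in SOX2-OFF therefore stand under that label alone.

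The value used throughout is the deposited fold enrichment at the summit, a ratio given by the peak caller. The lists held from 1628 to 991719 peaks, 10 of them held fewer than 20000 and 5 fewer than 5000. In those 10 lists every peak counts among the 20000 strongest, however low its fold. β-catenin lists of CEpiLC replicates 2 and 3 (15201 and 10930 peaks) are among them. SOX2 lists ran from 29298 to 907862 peaks. The number of reads behind a list is unknown, so no counting interval can be given. For each gene and library the strongest fold in the window is reported, and a window without a peak was set to a fold of 1. Values of 3 replicates in one condition are called separate from those of another when the groups do not overlap, because an exact test of 3 against 3 cannot go below a p of 0.1. The share of all tested gene windows that are separate in the same direction is given as the background of each such count.

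All 5 windows were occupied by several of the proteins, as most gene windows were. Of 21938 protein-coding genes, 20575 with windows apart from these 5 had a peak in at least 30 of 60 libraries. Nodal (ENSMUSG00000037171.6, chr10:61417972-61425338, plus strand, mm10) held 522 peaks and had at least 1 in 60 of 60 libraries. Lefty1 (ENSMUSG00000038793.8, chr1:180935022-180938400, plus strand) held 403 peaks in 54 libraries, and Lefty2 (ENSMUSG00000066652.5, chr1:180893108-180899103, plus strand) held 345 in 52. These neighbouring genes have windows that share 4082 bp. Tdgf1 (ENSMUSG00000032494.12, chr9:110939603-110946158, minus strand) held 415 peaks in 55 libraries and Foxh1 (ENSMUSG00000033837.5, chr15:76668225-76669948, minus strand) 299 in 50. Among the 20000 strongest peaks of each list Nodal had a peak in 55 of 60 libraries and Foxh1, the lowest, in 31. Other coding genes also lie in the windows, among them Eif4ebp2 in that of Nodal, Tmem63a in that of Lefty1, Lrrc2 in that of Tdgf1, and Cyhr1, Kifc2 and Ppp1r16a in that of Foxh1. A peak in a window is thus near the gene named and is not shown to act on it.

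Summits of the 20000 strongest peaks were joined into sites where neighbours lay within 250 bp. There were 583514 such sites in the genome, and 26668 of them had a summit in 3 of 3 libraries of at least 1 protein and condition. Of the sites in the windows, 12 met that criterion, 4 at Nodal, 2 each at Lefty1 and Lefty2, 3 at Tdgf1 and 1 at Foxh1. Sites are named by the distance of their centre from the gene's start. The sequences of 7 of these sites follow because the occupancy described below turns on them. Each is 201 bases of the GRCm38 reference (RefSeq), 100 bases either side of the centre, plus strand, 5′ to 3′, with matches to the searched motifs in capitals. The reference is of another strain than the 129 cells. The 3 Nodal sites lie upstream of the gene at chr10:61406093-61406293 and chr10:61415962-61416162 (intergenic) and in an intron at chr10:61419198-61419398.
Nodal -11.8 kb: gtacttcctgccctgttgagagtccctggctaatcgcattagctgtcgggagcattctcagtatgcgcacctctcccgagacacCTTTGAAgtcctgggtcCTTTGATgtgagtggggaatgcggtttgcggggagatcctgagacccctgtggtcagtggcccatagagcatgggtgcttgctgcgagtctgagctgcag
Nodal -1.9 kb: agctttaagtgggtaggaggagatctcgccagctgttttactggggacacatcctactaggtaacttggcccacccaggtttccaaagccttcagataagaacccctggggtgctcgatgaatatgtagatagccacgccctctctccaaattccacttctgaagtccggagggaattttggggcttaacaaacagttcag
Nodal +1.3 kb: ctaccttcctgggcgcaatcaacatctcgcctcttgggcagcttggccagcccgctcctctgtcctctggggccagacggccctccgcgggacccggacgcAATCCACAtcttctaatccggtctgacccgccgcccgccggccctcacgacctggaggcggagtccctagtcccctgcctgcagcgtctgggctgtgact

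The Lefty sites are intergenic, at chr1:180924784-180924984 and chr1:180933774-180933974 upstream of Lefty1 and at chr1:180883717-180883917 and chr1:180888694-180888894 upstream of Lefty2.
Lefty1 -10.1 kb: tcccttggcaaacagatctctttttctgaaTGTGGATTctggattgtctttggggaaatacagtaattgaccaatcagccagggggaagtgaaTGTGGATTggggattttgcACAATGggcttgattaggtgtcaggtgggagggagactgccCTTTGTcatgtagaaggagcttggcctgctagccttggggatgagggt
Lefty1 -1.1 kb: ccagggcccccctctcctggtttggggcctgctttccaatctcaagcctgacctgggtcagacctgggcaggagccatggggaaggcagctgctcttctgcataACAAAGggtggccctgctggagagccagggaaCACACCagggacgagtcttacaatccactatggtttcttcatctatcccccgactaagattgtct
Lefty2 -9.3 kb: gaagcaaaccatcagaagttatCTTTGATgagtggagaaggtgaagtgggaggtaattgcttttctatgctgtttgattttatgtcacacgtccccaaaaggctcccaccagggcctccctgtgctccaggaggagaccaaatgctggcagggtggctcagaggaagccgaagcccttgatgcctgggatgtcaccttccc
Lefty2 -4.3 kb: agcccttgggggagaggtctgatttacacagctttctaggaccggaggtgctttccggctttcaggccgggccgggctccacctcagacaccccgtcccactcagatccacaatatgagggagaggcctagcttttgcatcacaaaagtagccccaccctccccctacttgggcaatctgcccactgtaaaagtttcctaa

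Both strands of each 201-base site were searched for the exact letters of 7 motifs. The shares of all sites are over 583514 sites, of which 26668 met the criterion that the named sites were chosen by. The TCF/LEF letters CTTTGAA or CTTTGAT occurred at 3 of the 12 named sites and at 11.7% of all sites. At Nodal -11.8 kb they occurred on the plus strand as CTTTGAA, which starts 16 bases before the centre, and as CTTTGAT, which starts 1 base after it. The FOXH1 letters AATCCACA or AATACACA occurred at 2 named sites and at 2.12% of all sites. They lay 1 base after the centre of Nodal +1.3 kb, and on the minus strand of Lefty1 -10.1 kb at 2 positions, which start 70 and 7 bases before its centre. The SOX letters CATTGT or CTTTGT occurred at 2 named sites, both of Lefty1, against 30.2% of all sites. The letters GGTGTG, part of the site of the primitive streak factor T, occurred at 1 named site, Lefty1 -1.1 kb, against 13.6%. The SMAD letters GTCTAGAC (0.18% of all sites), the OCT letters ATGCAAAT (1.65%) and the CDX letters TTTATGG or TTTATTG (7.08%) occurred at none of the 12. The SOX and TCF/LEF letters share the run CTTTG. A match describes the sequence and is not evidence that a factor binds there.

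The ligand gene Nodal had the strongest β-catenin peak of the 5 genes in each of the 12 β-catenin libraries. At Nodal -11.8 kb β-catenin was present among the 20000 strongest peaks in 12 of 12 libraries, with folds of 36.5, 18.2 and 49.5 in naive ESC and 25.5, 41.4 and 35.9 in CEpiLC. In SOX2-ON the folds were 46.3, 32.4 and 53.0 and in SOX2-OFF 57.9, 29.8 and 83.5. No pair of these groups was separate. By fold, the peak ranked between 64 and 1199 in its own list. Its 12 β-catenin summits had a median offset of -2 bp from the site's centre and lay from 66 bp before to 29 bp after it, around the pair of TCF/LEF matches.

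The TCF/LEF factors were found at the same place. TCF7L1 was present at Nodal -11.8 kb in 11 libraries, with folds of 54.9, 34.1 and 96.9 in naive ESC, 13.9, 60.8 and 77.0 in SOX2-ON, and 26.2, 57.7 and 46.7 in SOX2-OFF. In CEpiLC it had folds of 25.4 and 18.2 in replicates 2 and 3 and no peak in replicate 1, whose list held 1628 peaks. LEF1 there was 12.7, 29.3 and 37.9 in CEpiLC, and in naive ESC it was absent from replicate 1 and 8.24 and 13.6 in the others. Median summit offsets were -9 bp for TCF7L1, 13 bp for LEF1 and 5 bp for TCF7L2. SOX2 summits at this site, 5 among the strongest peaks, were centred 94 bp to the side (median, range 31 to 126 bp).

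**Figure D1:**
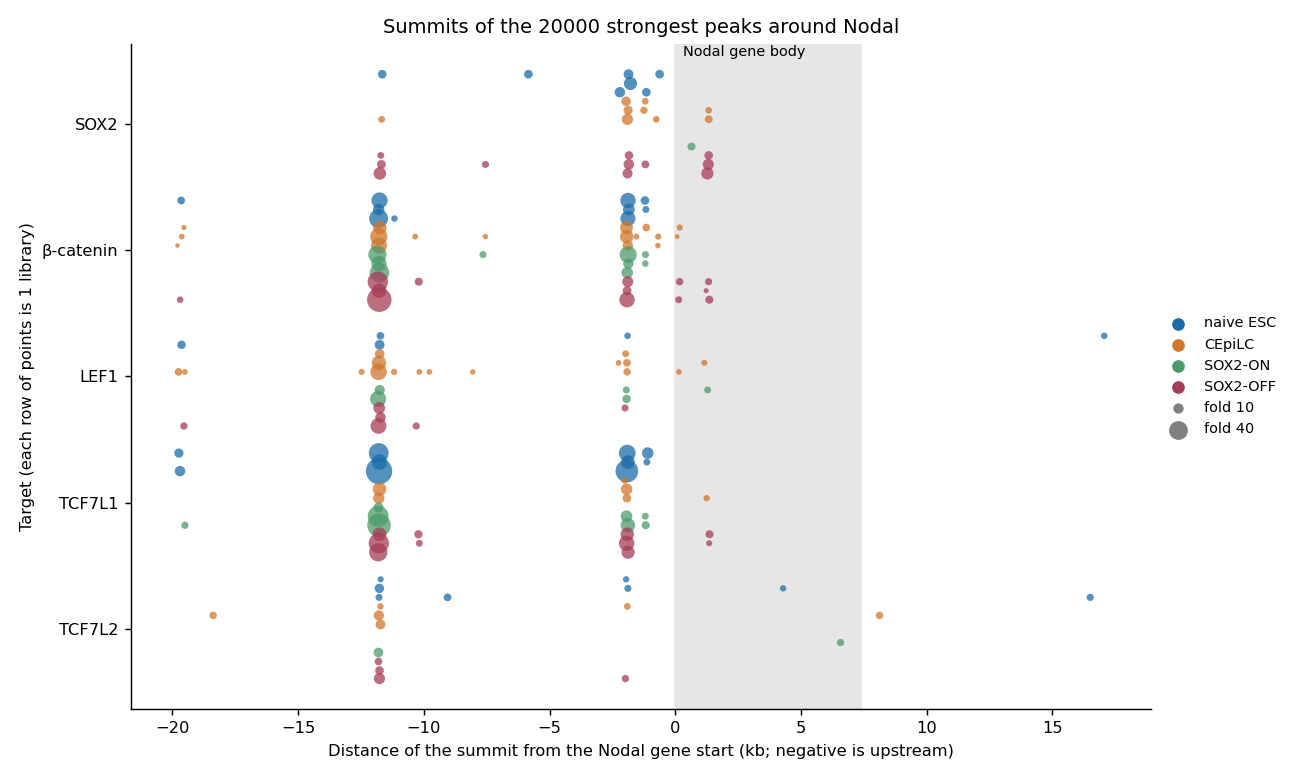
Peak summits in the Nodal window, by distance from the start of Nodal in kb (x axis), with 1 row for each of the 60 libraries grouped by protein and condition. The area of a point is proportional to the deposited fold and the grey band is the gene body. The column of large points 11.8 kb upstream runs through all 12 β-catenin rows, and the SOX2 points 1.3 kb inside the gene are in SOX2-OFF but not in SOX2-ON.

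SOX2 at Nodal was lower in SOX2-ON than in SOX2-OFF. The strongest SOX2 fold in the window was 5.15, 5.68 and 9.12 in SOX2-ON and 10.4, 17.3 and 21.9 in SOX2-OFF, so that the groups did not overlap, and it was 13.6, 24 and 15.3 in naive ESC and 12.7, 11.6 and 17.9 in CEpiLC. SOX2-ON was the low group of the 4. The difference, SOX2-ON minus SOX2-OFF, was -1.29 on the log2 scale, or 2.45-fold higher in SOX2-OFF. Of all tested windows, 5.74% were separate in this direction and 12.8% in the opposite one. The SOX2 lists held 93312 to 232446 peaks in SOX2-ON and 56263 to 375980 in SOX2-OFF, and the part of list length in the result was not tested.

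This difference lay at 3 Nodal sites. At Nodal -1.9 kb SOX2 had folds of 10.2, 15.6 and 14.2 in SOX2-OFF, 13.6, 24 and 15.2 in naive ESC and 12.7, 11.6 and 17.9 in CEpiLC. In SOX2-ON it had 1 peak, of fold 4.48, in replicate 1, which was not among the 20000 strongest. At Nodal +1.3 kb, in the intron, SOX2 was 10.4, 17.3 and 20.9 in SOX2-OFF and had no peak in any SOX2-ON library. This intronic site was also weak elsewhere, with 1 naive ESC library (3.37) and 2 CEpiLC libraries (6.37 and 8.59) carrying a SOX2 peak. Its 5 SOX2 summits among the strongest peaks had a median offset of 1 bp from the centre, where the FOXH1 match begins. At Nodal -11.8 kb SOX2 was 6.59, 10.9 and 21.9 in SOX2-OFF and had 1 peak in SOX2-ON (6.92). Counted among the 20000 strongest peaks, these 3 sites had SOX2 in 3 of 3 SOX2-OFF and 0 of 3 SOX2-ON libraries, out of 9 named sites that could be compared. The intronic site was named only through SOX2 and β-catenin in SOX2-OFF, so its presence there was set by the choice of sites. Over all sites with a summit in at least 3 of the libraries compared, 5.94% had the pattern and 38.8% the opposite one. With all peaks counted, the intronic site alone kept it.

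β-catenin at the intronic Nodal site was likewise found in 3 of 3 SOX2-OFF libraries, with folds of 7.10, 3.61 and 9.09. The peak of 3.61, in replicate 2, ranked 3339 in a list of 3423 peaks, all of which count among the 20000 strongest. Among the 20000 strongest peaks β-catenin was at this site in 0 of 3 SOX2-ON libraries (background 2.65% of sites) and 0 of 3 CEpiLC libraries (1.59%). With all peaks counted, 1 SOX2-ON library had a peak there (6.35, ranked 32520), which ends the call against SOX2-ON, and 1 naive ESC library had one (5.15). TCF7L1 was 8.93, 4.95 and 4.29 at the site in SOX2-OFF, absent from naive ESC and SOX2-ON, and 5.66 in 1 CEpiLC library. At Nodal -1.9 kb, by contrast, β-catenin was in 12 of 12 libraries, with a lowest fold of 11.1 and a highest of 40.6.

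For β-catenin in the whole Nodal window, SOX2-OFF (57.9, 29.8 and 83.5) overlapped SOX2-ON (46.3, 32.4 and 53.0). SOX2-OFF replicate 2, whose list held 3423 peaks, had the low value. With all libraries 0 of the 5 genes were separate, against 0.5% of windows higher in SOX2-OFF and 9.12% higher in SOX2-ON. Without that library Nodal (-0.69) and Lefty2 (-1.59) were separate and higher in SOX2-OFF, but so were 8.36% of all windows. Without it SOX2-OFF also lay above CEpiLC at Nodal (1.05), Lefty1 (2.70) and Lefty2 (0.82), as did 36.8% of all windows, whereas with all libraries 0 of the 5 genes and 3.21% of windows did. Some of these differences include libraries with no peak, set to a fold of 1. They are SOX2-ON replicate 2 at Lefty2 (in the -1.59) and CEpiLC replicates 1 and 2 at Lefty1 (in the 2.70).

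At the antagonist genes Lefty1 and Lefty2 SOX2 was highest in SOX2-OFF, where their folds exceeded those of the other 3 genes. The strongest SOX2 fold in the Lefty1 window was 53.3, 64.2 and 107 in SOX2-OFF and 11.6, 19.6 and 31.0 in SOX2-ON. It was 26.9, 49.1 and 44.6 in naive ESC and 24.3, 42.0 and 48.7 in CEpiLC. SOX2-OFF lay above each of the other groups in all 3 replicates. The difference SOX2-ON minus SOX2-OFF was -1.90 (3.73-fold), and SOX2-OFF minus CEpiLC was 0.96 (1.94-fold), the latter against 11.2% of windows separate in that direction. With windows of 10000 bp, which leave out Lefty1 -10.1 kb, the groups SOX2-OFF and CEpiLC overlapped at Lefty1 (0.70).

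Lefty2 behaved alike. Its strongest SOX2 fold was 41.7, 66.1 and 59.0 in SOX2-OFF, 9.77, 11.1 and 20.0 in SOX2-ON, 20.5, 27.6 and 26.9 in naive ESC, and 13.7, 24.4 and 27.9 in CEpiLC. SOX2-OFF was again above all other libraries. SOX2-ON minus SOX2-OFF was -2.08 (4.22-fold) and SOX2-OFF minus CEpiLC was 1.38 (2.59-fold). Of all tested windows, 5.74% and 11.2% were separate in these directions. Among all windows, 0.734% had a SOX2-ON minus SOX2-OFF difference as low as that of Lefty1 or lower, and 0.467% as low as that of Lefty2, whereas for Nodal the share was 3.62%.

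**Figure D2:**
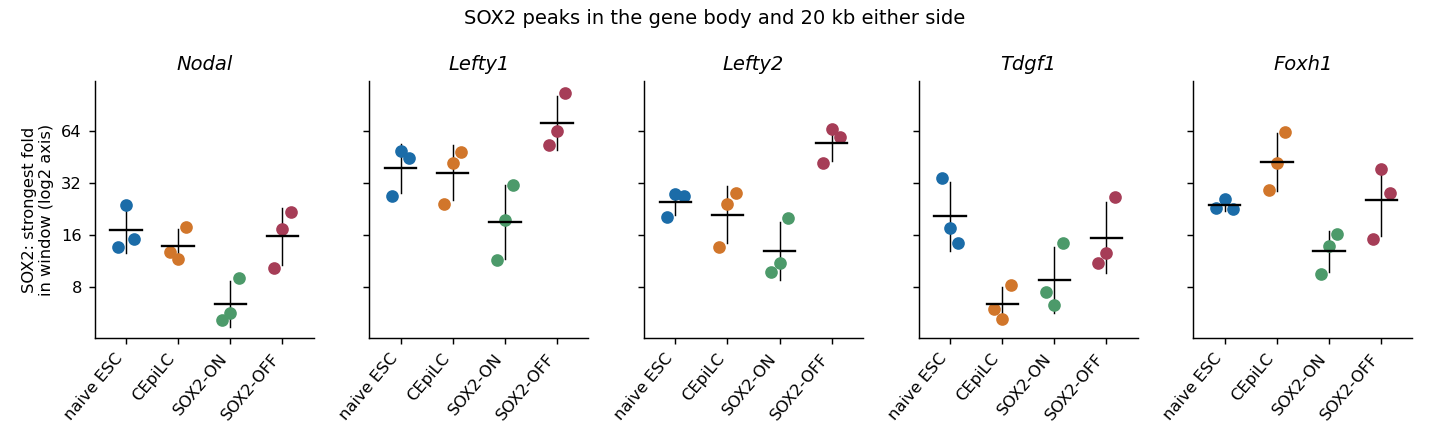
Strongest SOX2 fold in the window of each of the 5 genes (y axis, log2 scale) in the 3 libraries of each condition. Points are libraries, the horizontal line is the geometric mean and the vertical line spans 1 SD of the log2 values either side of it. At Nodal, Lefty1 and Lefty2 the 3 SOX2-OFF points lie above the 3 SOX2-ON points.

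At the level of sites, SOX2 occupied both Lefty1 sites and Lefty2 -4.3 kb in 12 of 12 libraries, so the conditions differed in strength and not in presence. At Lefty1 -10.1 kb, which holds 2 FOXH1 matches and 2 SOX matches, SOX2 was 53.3, 54.3 and 107 in SOX2-OFF and 9.27, 6.84 and 18.0 in SOX2-ON. By fold it ranked 29, 58 and 6 in the SOX2-OFF lists, but 6649, 13053 and 2078 in the SOX2-ON lists. At Lefty1 -1.1 kb it ranked 50, 29 and 23 in SOX2-OFF and 3898, 1053 and 446 in SOX2-ON. At Lefty2 -4.3 kb, where none of the 7 motifs matched, it ranked 47, 27 and 79 in SOX2-OFF and 5903, 4324 and 1592 in SOX2-ON. Naive ESC differed between the Lefty1 sites. There the distal site (26.9, 49.1 and 44.6) was stronger than the proximal one (21.2, 16.3 and 14.9) in each replicate, while in CEpiLC the proximal site (24.3, 42.0 and 48.7) was the stronger one (distal 15.3, 26.4 and 21.3).

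Because Lefty1 and Lefty2 are close paralogues, reads from one could be placed on the other. Of the 76-base words of the Lefty2 gene body, 3.21% also occurred in the Lefty1 sequence searched. At the 4 named Lefty sites, 0 of 426 words each were found in the Lefty sequences they were compared with. The search covered only such sequences and not the genome, so the 0 counts cannot show where reads from these sites were placed. Whether reads were placed on the wrong gene was thus not tested.

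β-catenin at the antagonists was weaker than at Nodal. The strongest β-catenin fold at Lefty1 was 15.3, 10.6 and 7.54 in naive ESC, and in CEpiLC it was 4.91 in replicate 3 with no peak in the others. The difference was 2.66, but 51.8% of all windows were separate and higher in naive ESC, with a median difference of 1.33. On ranks within lists (1.36) and with each library centred on the median of all windows (0.15) the groups overlapped. Without replicate 3 they did not overlap (3.67), but fewer than 3 of the libraries left had a peak and the window was not tested. In SOX2-ON the folds were 6.80, 5.91 and 16.6 and in SOX2-OFF 11.9 and 10.3, with no peak in replicate 2.

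A site with β-catenin in CEpiLC lay 9.3 kb upstream of Lefty2, and its sequence holds CTTTGAT. β-catenin was 5.13, 6.48 and 9.88 there in CEpiLC, was absent from naive ESC and SOX2-ON, and had 1 peak in SOX2-OFF (6.19). Among the 20000 strongest peaks it was in 3 of 3 CEpiLC libraries and 0 of 3 libraries of each other condition. The site was named only through that presence, so the 3 of 3 in CEpiLC was set by the choice of sites. The shares that follow are over sites taken by another rule, a summit in at least 3 of the libraries compared. Presence in CEpiLC and absence from naive ESC was seen at 21.6% of all β-catenin sites, and presence in CEpiLC and absence from SOX2-OFF at 13.3%. SOX2 had 1 peak in 12 libraries at this site.

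TCF7L1 at Lefty1 -1.1 kb was found in 3 of 3 SOX2-OFF libraries, with folds of 12.4, 8.53 and 8.83, and among the 20000 strongest peaks in 0 of 3 CEpiLC libraries. That pattern was seen at 14.3% of TCF7L1 sites. With all peaks counted, 1 CEpiLC library carried a peak (3.55).

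At the co-receptor gene Tdgf1 SOX2 had its highest mean fold in naive ESC. The strongest SOX2 fold was 34.3, 17.5 and 14.4 in naive ESC and 6.02, 5.22 and 8.23 in CEpiLC. Naive ESC was higher without overlap, by 1.69 on the log2 scale (3.22-fold), where 30.5% of all windows were separate in this direction and the median difference was 0.65. In SOX2-ON the folds were 7.57, 6.31 and 14.4 and in SOX2-OFF 11, 12.7 and 26.7, which overlapped (-0.81). SOX2-OFF was above CEpiLC (1.28, 2.43-fold), against 11.2% of windows separate in that direction and a median difference of 0.20.

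A pair of intergenic sites upstream of Tdgf1 carried different parts of this pattern. At Tdgf1 -2.0 kb SOX2 was 34.3, 17.5 and 14.4 in naive ESC and had 1 peak in SOX2-OFF (6.43). At Tdgf1 -1.4 kb SOX2 was 11.1, 12.7 and 26.7 in SOX2-OFF, 7.57, 3.69 and 9.37 in SOX2-ON, and 4.16, 5.15 and 6.15 in CEpiLC. In naive ESC it was 12.7 and 7.76 there, with no peak in replicate 3. TCF7L1 was also found at the distal site of the pair in naive ESC (27.1, 15.5 and 52.0), and in none of the naive ESC libraries at the proximal one.

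β-catenin at Tdgf1 was 25.1, 12.3 and 15.8 in naive ESC and 6.97, 9.05 and 4.67 in CEpiLC, which did not overlap (1.35). The median difference over all tested windows was 1.33. With each library instead centred on its own median over all windows, those without a peak included, the difference became -1.16. Another Tdgf1 site, 8.0 kb upstream and within the gene Lrrc2, carried LEF1 in CEpiLC (6.13, 6.33 and 5.00) and SOX2-ON (5.44, 5.96 and 6.01). All 3 CEpiLC peaks but only 1 of the 3 SOX2-ON peaks were among the 20000 strongest. The site was named only through LEF1 in CEpiLC, so its 3 of 3 there was set by the choice of sites. LEF1 in 3 of 3 CEpiLC and 0 of 3 naive ESC libraries among the 20000 strongest was seen at 41.8% of LEF1 sites. The same against SOX2-OFF was seen at 29.6%. With all peaks counted, 1 naive ESC library (4.33) and 1 SOX2-OFF library (4.6) had a LEF1 peak at the site, which ends both calls.

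Foxh1, which encodes the SMAD partner, had 1 named site. It spans the start of the gene (chr15:76669872-76669965), with its centre 45 bp inside the annotated UTR. SOX2 was present there in 12 of 12 libraries, with folds of 23.1, 25.8 and 22.7 in naive ESC and 29.2, 41.8 and 63.3 in CEpiLC. In SOX2-ON they were 9.55, 13.9 and 16.3 and in SOX2-OFF 15.2, 38.8 and 28.0. CEpiLC was above naive ESC without overlap, by 1.79-fold (-0.84 for naive ESC minus CEpiLC), against a background of 3.77% and a median difference of 0.65 in the other direction. SOX2-ON and SOX2-OFF overlapped (-0.98).

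β-catenin at the Foxh1 start was in 3 of 3 CEpiLC libraries (7.72, 8.38 and 6.07) and, among the 20000 strongest peaks, in 0 of 3 of SOX2-OFF and 0 of 3 of SOX2-ON. Presence in CEpiLC and absence from SOX2-OFF had the same background of 13.3% of β-catenin sites. With all peaks counted, 1 library of SOX2-OFF (3.5) and 1 of SOX2-ON (7.22) carried a peak, which ends the call. TCF7L2 in the Foxh1 window was 6.53, 5.41 and 5.71 in SOX2-ON and had 1 peak in SOX2-OFF (4.21). These groups did not overlap (1.86, background 3.99%), but with windows of 50000 bp the difference was -0.78. SOX2-OFF replicate 2 had a list of 4134 peaks. Without replicate 3 the groups did not overlap (2.57), but fewer than 3 of the libraries left had a peak and the window was not tested.

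**Figure D3:**
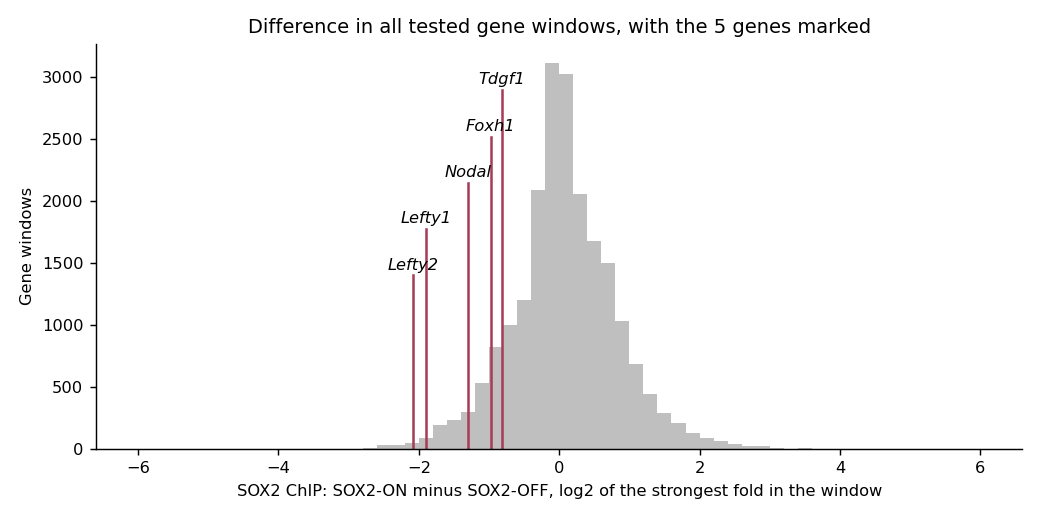
Differences of the strongest SOX2 fold, SOX2-ON minus SOX2-OFF, in log2 units (x axis), as the number of gene windows in each bin of the histogram (y axis, grey, 20969 windows). Vertical lines mark the 5 genes, from Lefty2 at -2.08 to Tdgf1 at -0.81, all to the left of the median of 0.05.

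TCF7L1 had a lower fold in CEpiLC than in naive ESC at each of the 5 genes. The strongest TCF7L1 fold at Nodal was 54.9, 34.1 and 96.9 in naive ESC and 5.66, 25.4 and 18.2 in CEpiLC (2.04). At Tdgf1 it was 27.1, 15.5 and 52.0 against 7.34 and 5.20, with no peak in CEpiLC replicate 1 (3.05). The differences were 2.40 at Lefty1, 2.37 at Lefty2 and 1.11 at Foxh1. All 5 were separate, against 33.9% of all windows and a median difference of 1.00. On ranks within lists only Tdgf1 was separate, and Nodal (-0.53) and Foxh1 (-0.054) had the opposite sign. Without CEpiLC replicate 1, the list of 1628 peaks, all 5 were still separate, with differences of 1.4 at Nodal, 1.49 at Lefty1, 1.44 at Lefty2, 2.18 at Tdgf1 and 0.25 at Foxh1. Leaving it out thus lowered each difference.

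SOX2-OFF was above CEpiLC for TCF7L1 at Nodal (26.2, 57.7 and 46.7, difference 1.58) and at Lefty1 (12.4, 8.53 and 8.83, difference 1.45), against 10.2% of windows and a median difference of 0.78. On ranks, and with each library centred on its own median over all windows, Lefty1 alone was separate. Without the short CEpiLC list the differences were 0.94 and 0.54. SOX2-ON and SOX2-OFF overlapped for TCF7L1 at all 5 genes. LEF1 showed no separate groups at any of the 5 genes in the 3 comparisons made. Its Nodal folds were 4.28, 8.24 and 13.6 in naive ESC, which held the lowest single value, and 12.7, 29.3 and 37.9 in CEpiLC, which held the highest.

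**Figure D4:**
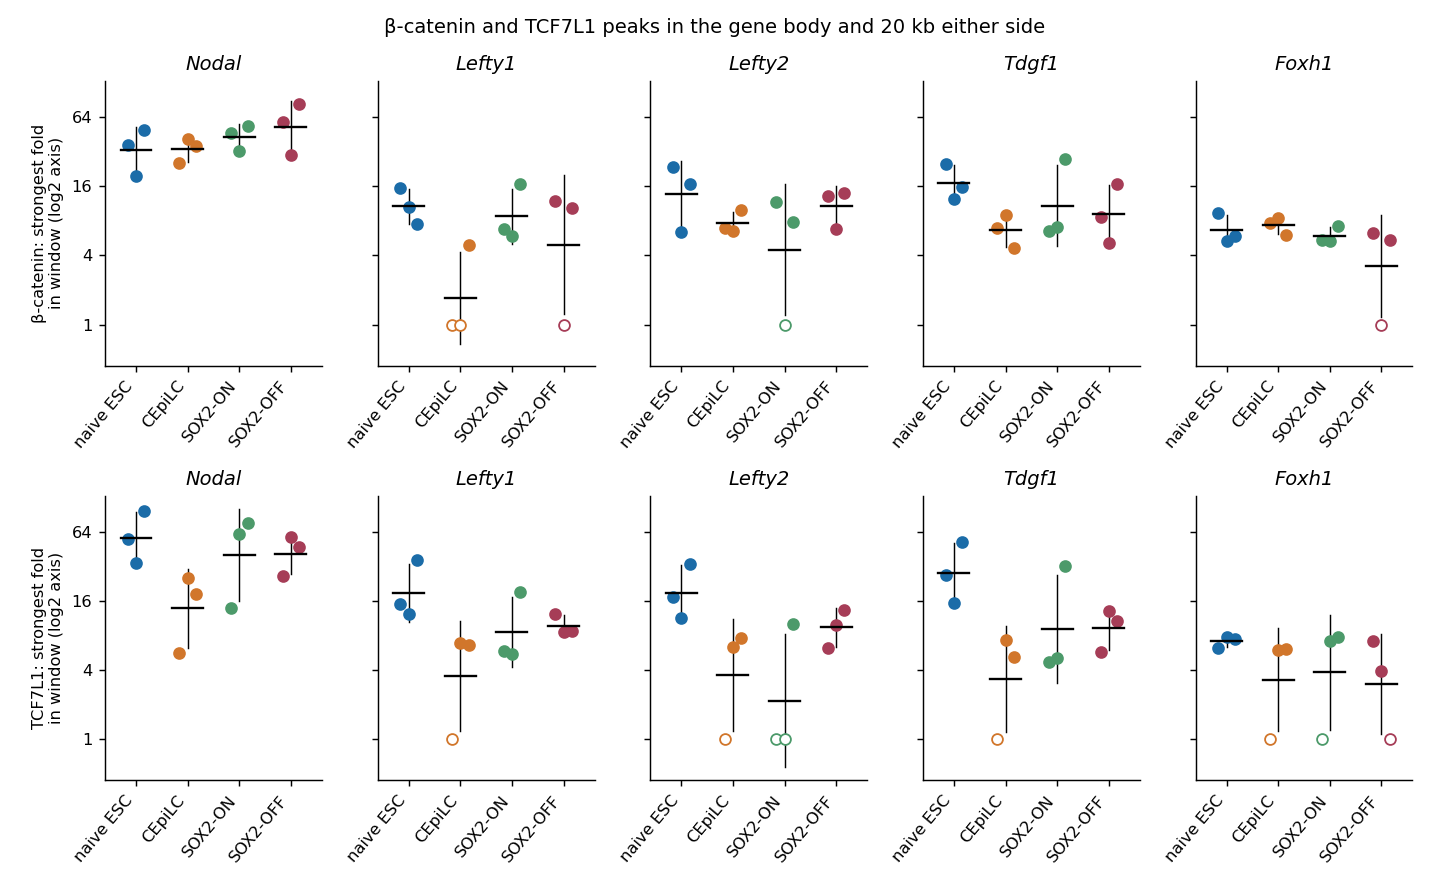
Strongest fold of β-catenin and TCF7L1 in the window of each of the 5 genes (y axis, log2 scale) in the 3 libraries of each condition. Open circles are libraries with no peak, drawn at a fold of 1, horizontal lines are geometric means and vertical lines span 1 SD of the log2 values either side. β-catenin at Nodal is 19.6 or more in all 12 libraries, and the geometric mean of TCF7L1 is lowest in CEpiLC at Nodal, Lefty1 and Tdgf1.

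A peak in 3 of 3 libraries among the 20000 strongest was found for 58 of 240 combinations of named site, protein and condition. Since the sites were chosen for such presence, this is a description. At the level of windows the figure was 48 of 100. The share of all windows ran from 4.85% to 36.4% per protein and condition. SOX2 was present in this way in 5 of 5 windows in naive ESC and SOX2-OFF, and in 4 of 5 in CEpiLC and SOX2-ON. Of all windows, 31.3%, 25.2%, 36.4% and 27.9% had SOX2 in 3 of 3 libraries in these conditions. For TCF7L2 the number was 1 of 5 in naive ESC, CEpiLC and SOX2-OFF and 0 of 5 in SOX2-ON, against 26.7%, 21.8%, 16.6% and 25.6% of all windows. In the order naive ESC, CEpiLC, SOX2-ON and SOX2-OFF, β-catenin had 3, 4, 1 and 3 of 5. Of all windows, 28.6%, 27.2%, 22.6% and 10.1% did. In the same order LEF1 had 1, 2, 1 and 2 of 5 (all windows 16.4%, 14.9%, 16.1% and 16.5%). TCF7L1 had 4, 1, 3 and 2 of 5 (all windows 35.1%, 4.85%, 19.1% and 21.3%).

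**Figure D5:**
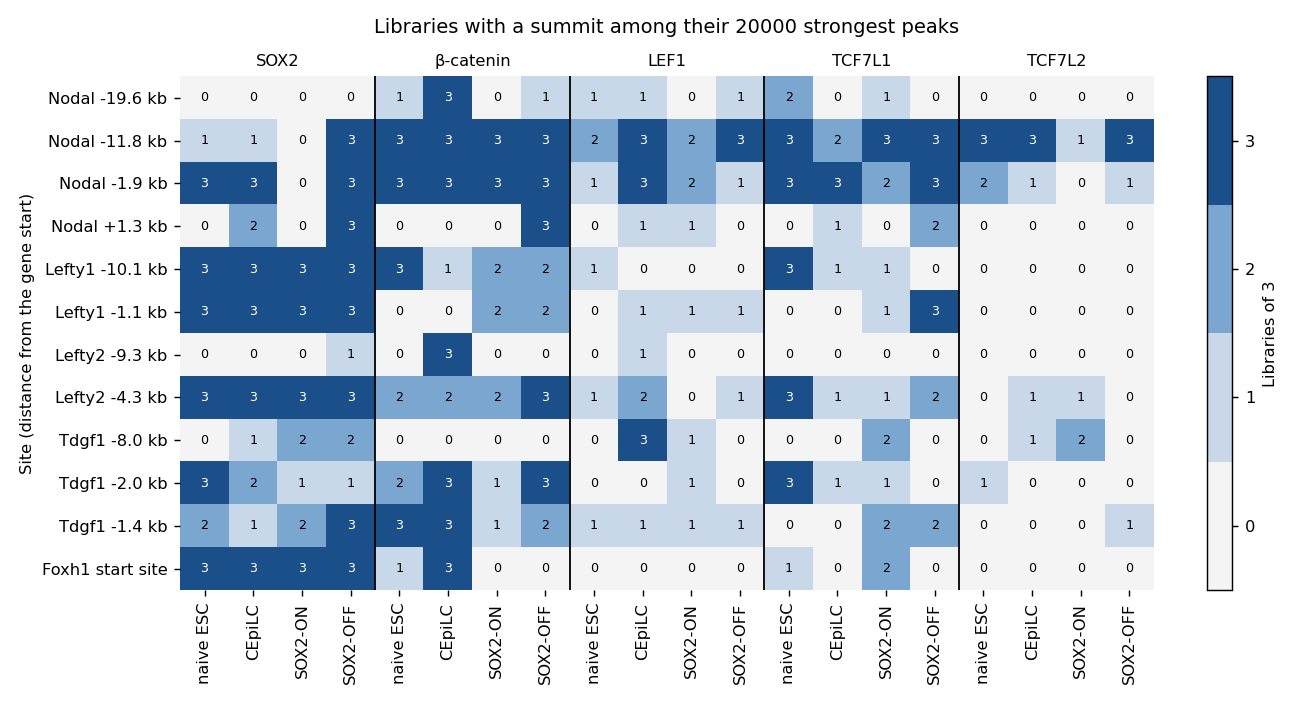
Number of libraries (0 to 3) with a summit among the 20000 strongest peaks at each of the 12 named sites (rows), for each protein and condition (columns). At Nodal -11.8 kb β-catenin is at 3 of 3 in all 4 conditions, and at Nodal +1.3 kb SOX2 is at 3 in SOX2-OFF and 0 in SOX2-ON.

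High-SOX2 and low-SOX2 conditions were then compared within each cell line, with an exact two-sided permutation test of 400 assignments whose smallest possible p is 0.005, adjusted by the Benjamini-Hochberg method over all windows. For each of the 5 proteins 0 windows passed an adjusted p of 0.05 (0% of those tested), whether members or not. The adjustment limits this test, because a window at the smallest p passes only when a large share of all windows also lies there. The lowest adjusted p of any window ran from 0.0764 with SOX2 to 0.989 with TCF7L2. The 0 counts therefore do not show that single windows are unchanged. An unadjusted p under 0.05 was found for 38.3% of windows with LEF1, 34.2% with β-catenin, 20.4% with SOX2, 7.89% with TCF7L1 and 1.88% with TCF7L2. Among the 25 combinations of gene and protein, 2 reached it. SOX2 at Foxh1 was lower in the high-SOX2 conditions by 0.91 (-0.91, exact p = 0.01, adjusted p = 0.105). LEF1 at Tdgf1 was higher by 0.82 (exact p = 0.045, adjusted p = 0.118), below the median of all windows for LEF1 (1.17).

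For SOX2 the other high minus low differences were -0.91 at Lefty1 (exact p = 0.1), -0.92 at Lefty2 (exact p = 0.075), -0.49 at Nodal (exact p = 0.215) and 0.44 at Tdgf1 (exact p = 0.43). Their adjusted p values ran from 0.287 to 0.673. The median over the 5 genes was -0.91 for SOX2, and over all windows 0.39. The same medians for TCF7L1 were 1.00 over the 5 genes and 0.14 over all windows. With LEF1 they were 0.74 and 1.17, with TCF7L2 0.21 and 0.38 and with β-catenin 0.37 and 1.12.

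The other genes of the pathway were taken from a list of 24, which holds further ligands and antagonists, processing enzymes, receptors, SMADs, cofactors and targets. None passed the adjusted test for any of the 5 proteins, which has the limit stated above. The median SOX2 high minus low difference over the 24 was 0.07, and 5 of them had an unadjusted p under 0.05 with the high-SOX2 conditions higher and 1 with them lower. With LEF1 that unadjusted count was 10 higher and 0 lower, with β-catenin 8 and 0, with TCF7L1 1 and 1, and with TCF7L2 0 and 0. For SOX2 between SOX2-ON and SOX2-OFF, 4 of the 24 were separate and higher in SOX2-ON, as were 12.8% of all windows. The largest were Smad2, a transducer, from 12.9 to 16.4 in SOX2-ON and from 4.86 to 6.34 in SOX2-OFF (1.45), Furin, a protease that processes the Nodal precursor (1.25), and the receptor gene Acvr1c (1.06). For β-catenin, Mixl1, a primitive streak target, was higher in CEpiLC (20.7 to 29.1) than in naive ESC (5.55 to 6.77), by 3.82-fold (-1.93), where 6.57% of all windows were separate in that direction. In the opposite direction 9 of the 24 were separate, against 51.8% of all windows.

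The pattern of occupancy over the 20 means of protein and condition, each protein centred on its own mean, was then compared with that of other genes. The means come from the same 60 lists, and so share list length and the peak caller, and the correlations are descriptions. Nodal was most like Efna3 (r = 0.84), 2510009E07Rik (0.81) and Adam15 (0.81), and Lefty1 most like Zbp1 (0.92), Fbxw7 (0.90) and Olfr127 (0.89). Lefty2 was most like Il21r (0.87), Zcchc24 (0.85) and Akap9 (0.83). For Tdgf1 they were Sptssa (0.92), Dctn6 (0.91) and Pecam1 (0.91), and for Foxh1 Atp13a1 (0.85), Ccdc124 (0.84) and Cxcl10 (0.84). Among the 5 genes themselves the highest value was 0.60, between Lefty1 and Tdgf1, and the lowest 0.04, between Nodal and Foxh1.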

How the data were processed

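Per the labels and methods, the authors fixed cells with DSG and formaldehyde, sequenced single-end 76 bp reads, and ran nf-core/chipseq with trimming by Trim Galore, alignment to mm10 by BWA and narrow peak calling by MACS2 (q below 0.05), for each library. The pairing with the 4 input samples, which were not analysed here, is not given in the sources used here. The deposited lists give a fold (a ratio) per peak. The deposited −log10 p and −log10 q served as alternatives and filters. Read depth is unknown. Here Python 3.11.15, NumPy 2.4.6 and pandas 2.3.3 were used, with GENCODE M21 gene bodies. Windows were tested when at least 3 libraries of the comparison had a peak. The permutation code was tested on simulated data. The 5 genes and the lists were chosen with earlier results of these data known. Sites were named if 3 of 3 libraries of a protein and condition had a summit there, other pathway genes as the 3 largest differences called per direction for SOX2 and β-catenin, and similar genes as the 3 with the highest correlation, among 20575 genes compared. P-values measure the spread between 3 biological replicates per group. The labels do not say what replicate numbers share between groups. Of 90 pairs of same-numbered samples, 17 deviated together with a correlation over 0.1 (median 0.0319), so the numbers were not taken as pairs. The alternatives changed the window, the value of absent windows, the scale, the peak set, the linkage of summits and the libraries included. Some items, among them a result for the other pathway genes that were higher in SOX2-OFF, are not reported here.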

Additional observations from a re-analysis of the deposited data

Results flagged for a closer look

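The difference between high-SOX2 and low-SOX2 conditions was compared between the cell lines, as naive ESC minus CEpiLC in wild-type cells less SOX2-ON minus SOX2-OFF in SOX2-TetON cells. In an exact two-sided permutation test over 400 assignments, 0 of all windows passed after adjustment, which has the same limit as in the high against low test. An unadjusted p under 0.05 was found in 6 of the 25 combinations of gene and protein. For SOX2 4 of the 5 genes reached it with the higher signed difference in wild-type cells, as did 11.3% of all windows. For TCF7L1 2 of the 5 did, against 16.7%. For SOX2 the signed difference was higher in wild-type cells by 1.60 at Nodal (exact p = 0.045, adjusted p = 0.335) and 1.98 at Lefty1 (exact p = 0.015, adjusted p = 0.268). It was higher by 2.31 at Lefty2 (exact p = 0.005, adjusted p = 0.267) and 2.50 at Tdgf1 (exact p = 0.005, adjusted p = 0.267). The median of all windows was 0.58. At Nodal, Lefty1 and Lefty2 the wild-type difference was near 0 (0.31, 0.08 and 0.23). That of SOX2-TetON cells was below 0 there and larger in size. For TCF7L1 the signed difference was higher in wild-type cells by 2.59 at Lefty1 (exact p = 0.04, adjusted p = 0.263) and 4.49 at Lefty2 (exact p = 0.02, adjusted p = 0.236). The median of all windows for TCF7L1 was 1.60. Without the list of 1628 peaks (TCF7L1 CEpiLC replicate 1) these were 1.68 and 3.56, and Lefty1 no longer had an unadjusted p under 0.05. With 1 replicate left out the test cannot go below a p of 0.0556. The wild-type difference sets undifferentiated cells in 2i medium against differentiated cells, whereas both SOX2-TetON cultures were differentiated for 72 h. Cell line, genotype, doxycycline, medium, differentiation state and SOX2 thus cannot be told apart here.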

How the results depend on the processing

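Nodal, Lefty1 and Lefty2 kept SOX2 higher in SOX2-OFF than in SOX2-ON without overlap in all 11 alternatives and the main setting. The count of 3 of 5 genes (5.74% of all windows) became 5 on ranks within lists (9.49%), 5 with the replicate block (13.5%) and 3 to 5 with 1 replicate left out (8.41% to 24.3%), so all windows rose with it. For SOX2 higher in SOX2-OFF than CEpiLC the count of 3 (11.2%) became 2 with windows of 10000 bp (10.9%) and 4 on ranks (4.32%). It stayed at 3 under the other alternatives, with 15.1% to 31.3% of all windows when 1 replicate was left out. For β-catenin higher in naive ESC than CEpiLC the count of 2 (51.8%) became 0 on ranks (18.3%) and 0 after centring on the median of all windows (6.94%), and 1 to 4 with 1 replicate left out (48.7% to 54.0%), where Lefty1 without replicate 3 had too few peaks to be tested. For TCF7L1 higher in naive ESC the count of 5 (33.9%) became 1 on ranks (17.7%), and for TCF7L1 higher in SOX2-OFF than CEpiLC the count of 2 (10.2%) became 1 on ranks (5.35%), 1 after centring (7.13%), 4 with the replicate block (18.7%) and 2 to 4 with 1 replicate left out (15.9% to 51.0%). In both of these settings that lower the count, Nodal lost the call. Replicate numbers share no origin in the labels, and the block changed no other count by over 1.5 times. Windows with a peak in every library rose from 48 to 75 of 100 when all peaks were counted (55 to 64 with 1 replicate left out). The share of all windows rose as well, from 4.85% to 36.4% per protein and condition to 6.33% to 90.8%. SOX2 sites present in SOX2-OFF and absent from SOX2-ON fell from 3 to 1 with all peaks, and the β-catenin site from 1 to 0 (1 to 2 with 1 replicate left out). The sign reversed for β-catenin at Tdgf1 (naive ESC minus CEpiLC, -1.16) after centring, for TCF7L1 at Nodal (-0.53) and Foxh1 (-0.054) on ranks, for TCF7L2 at Foxh1 (SOX2-ON minus SOX2-OFF, -0.78) with windows of 50000 bp, for high minus low of β-catenin at Lefty1 (-0.0078) and LEF1 at Tdgf1 (-0.67) after centring, and for LEF1 at Nodal (0.43) with windows of 10000 bp. Differences between conditions that were not called in the main setting were not checked for sign. The cause of the reversals was not tested. The high against low test called 0 of 25 under each alternative. Given the limit of its adjustment stated above, these 0 counts do not show that the result is stable. The unadjusted count of 2 ranged from 0 to 11. With 1 replicate left out that test cannot go below 0.0556. The alternative without the 5 lists under 5000 peaks was added after seeing the data. Of the other values, 559 counted as unchanged, 32 moved, and 55 gained and 45 lost separation or p. Some losses arose because too few libraries with a peak were left to test. A difference not called in the main setting counted as unchanged within the pooled SD of its groups, whatever its sign. Beyond that it counted as moved. List length, from 1628 to 991719 peaks, limits what an absent peak can show.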
